A study of Mus musculus with 135 samples.

Results

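The 36 genes described here mark the endothelial cells of brain vessels or carry solutes across them, and they were taken by symbol from a list of endothelial receptors, adhesion proteins, transcription factors and barrier transporters. They are 36 of the 55416 genes counted in cortex and hippocampus of Townes mice, and all 36 were found in both tissues and passed the filter on low counts in every comparison. Brain endothelial cells line the capillaries and are sealed to each other by junction proteins, so that most solutes cross only through transporters. Efflux pumps return drugs and lipophilic compounds to the blood, and uptake carriers bring in amino acids, lactate, vitamins, hormones and lipids. Receptors for vascular growth factors and transcription factors of the ETS family maintain the vessels and their identity, and in sickle cell disease this layer is in contact with sickled erythrocytes and products of haemolysis.

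All mice were male Townes mice, in which human globin genes replace the mouse ones. SS mice carry the sickle form and AA mice, the humanized controls, the normal form, and the mice of the stress cages and their matched controls were 6 months old in the study's methods. Repeated social defeat (RSD) was a daily exposure of the resident mice to an aggressive male, and minocycline, a tetracycline antibiotic, was given in the drinking water from the day before the first defeat until the last. The compared groups were AA (12 mice in cortex and 11 in hippocampus), AA + RSD (3), AA + RSD + minocycline (18), SS (8 and 7), SS + RSD (6), SS + RSD + minocycline (14) and SS + minocycline (4). The question asked of these genes was how their levels differed by genotype, stress, treatment and tissue.

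The libraries of both tissues held 12869149 to 107713193 reads on genes. Levels are given as counts per 1000000 reads on genes (CPM), and differences as log2 fold changes with their standard error and with a p-value adjusted over all genes tested, where under 0.05 is written as a call. These are pieces of whole tissue, so that fewer endothelial cells and less RNA per endothelial cell cannot be told apart. RNA of these genes from other cells of the tissue is counted as well and cannot be separated. The mouse numbers in the labels fall into 3 number series, here A (5349 to 5400 and 9615 to 9674), B (5645 to 5900 and 9810 to 9910) and C (7037 to 7121 and 10633 to 10639). All RSD mice without minocycline were in series A, and all RSD + minocycline mice were in series B or C, whereas AA and SS mice were in both A and B. The share of reads outside genes also differed between these groups. Its median in cortex was 4.18% in SS + RSD and 9.76% in SS + RSD + minocycline. It did not follow the series alone, since cortex libraries of series B ran from 3.85% (9889) to 13.9% (9851). Within cortex of SS + RSD + minocycline it ran from 4.27% to 12.1%, and within SS + RSD from 3.69% to 8.39%.

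Some libraries stood apart from their labels or their group. The AA mouse 5844 had the erythroid gene Alas2 at 95.9 CPM in cortex and the AA + RSD + minocycline mouse 5853 at 51.9, while SS + RSD + minocycline mouse 7078 had 6.47. The AA mouse 9631 was the exception for mouse haemoglobin, with 1944 reads of Hbb-bs in cortex, whereas no other mouse exceeded 8. In AA + RSD mouse 9674 the library labelled cortex had Prox1, a marker of dentate granule cells, at 87.6 CPM, and the library labelled hippocampus had 16, below the 45.3 to 175 of the other hippocampus libraries. Cortex libraries 5646, 5801, 9813, 9890 and 9621 and hippocampus library 9810 stood apart from the other libraries of their tissue in region markers. Some results are also given without these libraries, and the other ranges, medians and counts include them unless stated.

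Per kilobase of exons, the levels of the 36 genes in AA mice differed by a factor of 273 between the highest and the lowest in cortex and 379 in hippocampus. Bsg, basigin, a chaperone of lactate transporters that other brain cells use too, was highest with a median of 132 CPM per kilobase in cortex and 149 in hippocampus. Slc3a2 and Slc7a5, the heavy and light chains of the large neutral amino acid carrier, followed among the highest, at 24.5 and 21.8 in cortex and 24.4 and 19.3 in hippocampus. The zinc importer Slc39a10 was close to them in cortex at 24.1 and lower in hippocampus at 11.6. Nostrin, an adaptor that binds endothelial nitric oxide synthase, was lowest at 0.484 in cortex and 0.394 in hippocampus, after the glutamine carrier Slc38a5 at 0.492 in cortex and the ETS factor Fli1 at 0.64. Of the 35 pairs of neighbours in this order, 34 overlapped in cortex and 33 in hippocampus, and those that did not were Bsg and Slc3a2 in both tissues and Slc3a2 and Slc7a5 in hippocampus. The spread between AA mice, as the SD over the mean, was 8.18% to 41.6% in cortex and 5.72% to 51.3% in hippocampus.

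**Figure D1:**
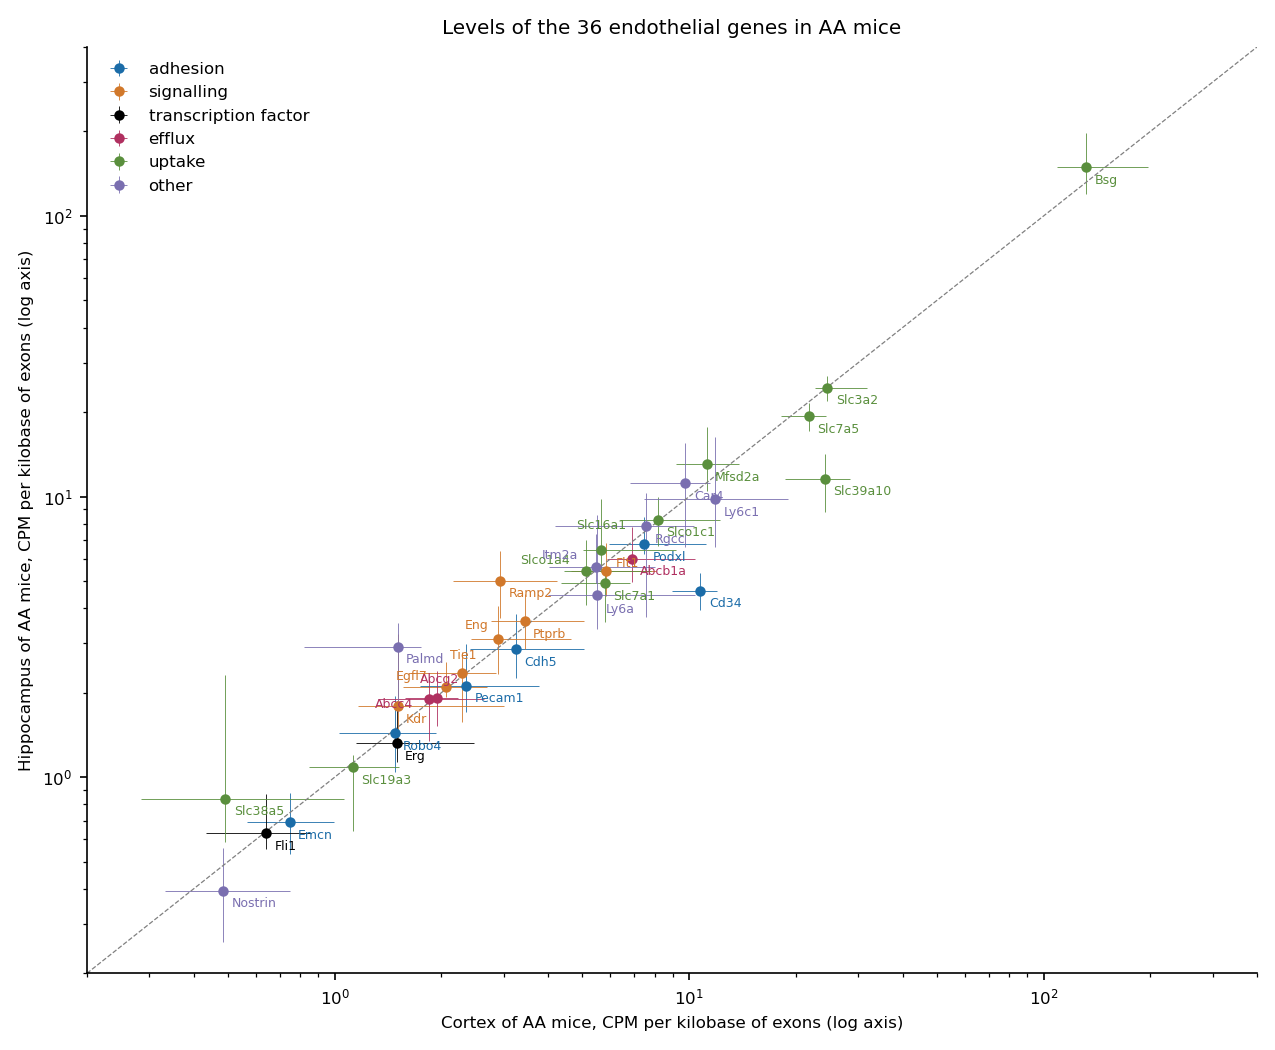
Median level of each of the 36 genes in AA mice, in CPM per kilobase of exons on log axes, in cortex (12 mice) and hippocampus (11 mice), with lines from the lowest to the highest mouse and a dashed line of equal levels. Bsg stands above the rest in both tissues, and Cd34 and Slc39a10 lie below the line.

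Eng, Kdr, Nostrin and Robo4 were the genes called between SS and AA mice, and the 250 bases before their starts are shown because they moved together. Eng encodes endoglin, a co-receptor for TGF-beta family ligands, Kdr the main signalling receptor for VEGF, and Robo4 an endothelial receptor of the roundabout family that steadies vessels. The sequences are from RefSeq on GRCm38.p6, not the GRCm39 build of the counts, and run 5′ to 3′ on the gene's strand, at chr2:32646345-32646594 (+) for Eng, chr2:69135550-69135799 (+) for Nostrin, chr5:75978456-75978705 (-) for Kdr and chr9:37401722-37401971 (+) for Robo4. Capitals mark matches on either strand to CNGGAA, a C and any base before GGAA. GGAA holds the core letters of sites for ETS factors such as Erg and Fli1.
Eng: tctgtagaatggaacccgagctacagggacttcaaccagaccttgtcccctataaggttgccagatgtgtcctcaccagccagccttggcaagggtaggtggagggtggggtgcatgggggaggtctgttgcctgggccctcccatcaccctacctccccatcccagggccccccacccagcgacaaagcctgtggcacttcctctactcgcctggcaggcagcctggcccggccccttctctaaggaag
Nostrin: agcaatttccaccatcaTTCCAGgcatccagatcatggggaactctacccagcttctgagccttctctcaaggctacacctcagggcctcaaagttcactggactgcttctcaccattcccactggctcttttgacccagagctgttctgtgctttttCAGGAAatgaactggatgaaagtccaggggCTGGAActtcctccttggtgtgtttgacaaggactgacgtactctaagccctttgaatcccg
Kdr: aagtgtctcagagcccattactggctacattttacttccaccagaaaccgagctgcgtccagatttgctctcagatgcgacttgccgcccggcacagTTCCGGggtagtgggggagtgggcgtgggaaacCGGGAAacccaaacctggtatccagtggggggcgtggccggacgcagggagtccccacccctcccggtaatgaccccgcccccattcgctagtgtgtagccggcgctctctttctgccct
Robo4: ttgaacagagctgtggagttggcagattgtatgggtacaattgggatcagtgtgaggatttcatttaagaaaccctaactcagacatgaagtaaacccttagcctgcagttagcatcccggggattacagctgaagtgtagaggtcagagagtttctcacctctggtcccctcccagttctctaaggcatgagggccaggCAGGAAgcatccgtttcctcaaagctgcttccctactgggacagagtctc
The stretch of Eng held no match to CNGGAA, that of Nostrin 3, that of Kdr 2 and that of Robo4 1. GGAA without that C is not marked, and the stretch of Eng contains it. Over windows from 250 bases before to 50 after a start, on both strands, CNGGAA was found in 25 of 36 windows of these genes (69.4%) and in 61.7% of 32851 windows of all genes. The longer CNGGAAGT, which contains the first, was found in 4 of the 36 (11.1%) and in 9.53% of all. The windows cover 26 of the 36 genes, since Cdh5, Ramp2, Ptprb, Bsg, Fli1, Pecam1, Podxl, Palmd, Slc7a5 and Ly6a had no entry, and a match to letters is not a measured site.

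Between SS and AA mice without stress or drug, Eng, Kdr and Nostrin differed in both tissues. The test was passed by 4 genes in cortex (Eng, Kdr, Nostrin and Robo4) and 3 in hippocampus (Eng, Kdr and Nostrin), all higher in SS, against 0.214% and 0.159% of all genes called. Of the 36, 34 were above 0 in cortex and 33 in hippocampus, with medians of 0.24 and 0.27 against -0.00 and 0.01 over all genes tested. At an unadjusted p under 0.05 there were 13 in cortex and 17 in hippocampus.

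Eng in cortex ranged from 18.9 to 36.3 CPM in the 12 AA mice (median 22.6) and from 32.1 to 46 in the 8 SS mice (median 41). The groups overlapped through a single AA mouse, 5844, the one with Alas2 at the level of SS mice. Without it the highest of the other 11 AA mice was 28.4, below every SS mouse. Eng was 1.65-fold higher in SS cortex (log2 0.73, SE 0.118, adjusted p = 0.000203). In hippocampus Eng ran from 18.2 to 31.9 CPM in AA (median 24.2) and from 31.5 to 46.8 in SS (median 35.6), 1.52-fold higher (log2 0.61, SE 0.115, adjusted p = 0.00237). Again the highest AA mouse was 5844, and the next at 27.8 was below all SS mice. The gene lies at chr2:32535543-32574661 (+) on GRCm39, and 11.03% of its exonic bases overlap Fpgs on the other strand.

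Kdr in cortex ran from 10.7 to 27.6 CPM in AA mice (median 13.9) and from 21.7 to 30.7 in SS mice (median 26.5), 1.69-fold higher (log2 0.76, SE 0.163, adjusted p = 0.0123). In hippocampus the AA mice were at 12 to 29.9 (median 16.4) and the SS mice at 21.7 to 38.7 (median 27.1), with log2 0.64 (SE 0.145, adjusted p = 0.0322). In both tissues the overlap was again mouse 5844 alone, at 27.6 and 29.9 CPM, and the next AA mice were at 20.4 and 19.2. Without it the difference was 0.85 in cortex and 0.75 in hippocampus on the log2 scale. Kdr lies at chr5:76093487-76139884 (-).

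Nostrin in hippocampus had no overlap between the groups, with 1.957 to 4.22 CPM in AA (median 2.99) and 4.35 to 7.16 in SS (median 5.1), 1.70-fold higher (log2 0.77, SE 0.154, adjusted p = 0.00552). In cortex AA mice had 2.52 to 5.68 CPM (median 3.67) and SS mice 5.08 to 7.59 (median 5.82), with log2 0.69 (SE 0.161, adjusted p = 0.03). Only mouse 5844 reached into the SS range there. The gene lies at chr2:68966099-69025220 (+), and 48.8% of its exonic bases overlap Spc25 on the other strand. The strand setting of the counting is not given in the sources used here, so reads of the 2 genes cannot be told apart.

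Robo4 (chr9:37313193-37326411, +) differed less evenly. In cortex it ranged from 5.47 to 10.3 CPM in AA (median 7.84) and from 7.97 to 14 in SS (median 12), with log2 0.57 (SE 0.119, adjusted p = 0.00859). In hippocampus it ranged from 5.55 to 10.3 in AA and 8.93 to 12.1 in SS, and the log2 difference of 0.52 was not called (adjusted p = 0.0896). Both tissues overlapped, also without mouse 5844.

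**Figure D2:**
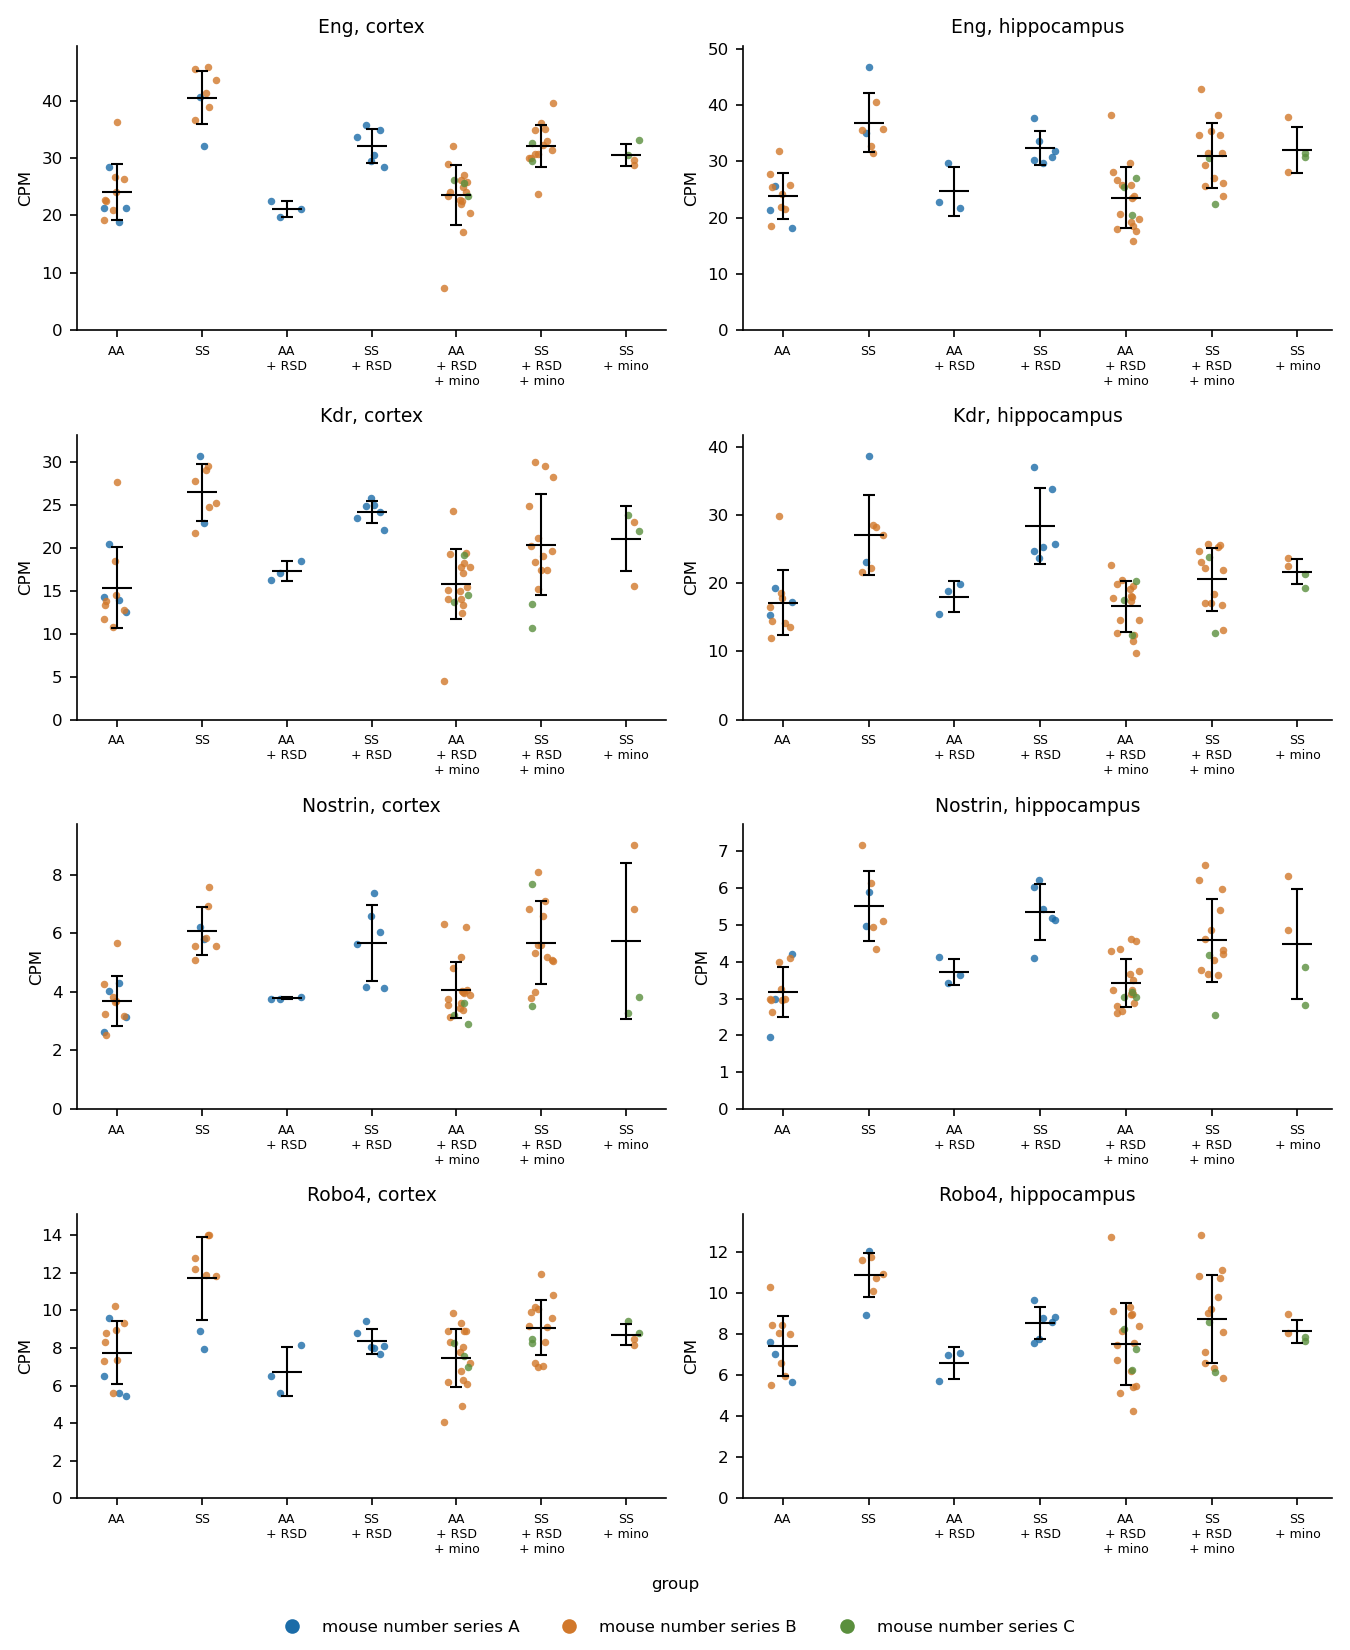
CPM of Eng, Kdr, Nostrin and Robo4 in every compared mouse, by group and tissue, with the mean and SD as bars and the mouse number series in colour (mino, minocycline). Eng in SS cortex lies at 32.1 to 46 CPM, and the AA mouse at 36.3 and the AA + RSD + minocycline mouse at 7.34 stand apart from their groups.

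Within number series the differences of these genes between SS and AA kept their direction but mostly missed the threshold. Eng was 0.66 higher in SS cortex within series A (adjusted p = 0.166) and 0.72 within series B (adjusted p = 0.0427), and 0.87 and 0.49 in hippocampus. Kdr gave 0.77 and 0.73 in cortex and 0.79 and 0.55 in hippocampus, and Nostrin 0.74 and 0.65 in cortex and 0.79 and 0.74 in hippocampus. Robo4 gave 0.28 in series A and 0.60 in series B of cortex (adjusted p = 0.0463 for B). With the series as a term, Eng was at 0.72 in cortex and 0.60 in hippocampus. SS mouse 5349 weighed on the count: without it 2 genes were called in cortex (Eng at 0.70 and Robo4 at 0.59) and 2 in hippocampus (Eng at 0.53 and Nostrin at 0.74). Kdr without 5349 had adjusted p = 0.0561 in cortex and 0.438 in hippocampus.

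By role, all 7 signalling genes were above 0 in both tissues, with medians of 0.48 in cortex and 0.42 in hippocampus. Beside Eng and Kdr, Flt1 (the VEGF receptor that also acts as a decoy) was at 0.48 and 0.47, and Egfl7, a matrix protein secreted by endothelium, at 0.52 and 0.42. None of these passed the test, although Egfl7 in cortex did not overlap between 12.5 to 21.5 CPM in AA and 21.8 to 28.2 in SS (adjusted p = 0.164). Tie1, an orphan partner of the angiopoietin receptor, was at 0.42 and 0.39, Ptprb, a phosphatase of that receptor and of VE-cadherin, at 0.33 and 0.36, and Ramp2, a partner of the adrenomedullin receptor, at 0.14 and 0.21. The 6 adhesion genes were all above 0, from Cd34 at 0.09 and 0.07 to Robo4, with Cdh5 (VE-cadherin) at 0.36 and 0.47 and Pecam1 (CD31) at 0.29 and 0.49. The ETS factors were at 0.36 and 0.30 for Erg and 0.18 and 0.23 for Fli1.

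None of the 14 transporters was called. The efflux pumps were at 0.23 and 0.30 for Abcb1a (P-glycoprotein), 0.14 and 0.21 for Abcg2 and 0.25 and 0.22 for Abcc4. Of the 11 uptake genes, 9 were above 0 in cortex and 8 in hippocampus, with medians of 0.18 and 0.16 and no call. They ran from the zinc importer Slc39a10 at -0.17 and -0.16 and the lipid carrier Mfsd2a at -0.11 and -0.08 to Slc38a5 at 0.28 and 0.35. Slco1a4, a carrier of organic anions, was at 0.26 and 0.24, and the lactate carrier Slc16a1 at 0.23 and 0.28. The amino acid carriers Slc7a1 and Slc3a2 were at 0.04 and 0.03 in cortex and -0.10 and 0.07 in hippocampus. Among the remaining genes beside Nostrin, the surface proteins Ly6a and Ly6c1 were at 0.35 and 0.26 in cortex and 0.51 and 0.33 in hippocampus. Abcb1a has a paralogue, Abcb1b, and Ly6c1 a close copy, Ly6c2, that could share some of their reads.

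Further endothelial genes and mural cell genes were called between SS and AA. A separate list of 16 endothelial genes had all 16 above 0 in both tissues, with medians of 0.38 and 0.41. Of them 4 were called in cortex, namely Vwf (1.49), the clotting factor carrier, Sox17 (0.79), Slc22a8 (0.62) and Esam (0.53), and 2 in hippocampus, Vwf (1.54) and Esam (0.49). The 6 pericyte markers were all above 0 (medians 0.53 and 0.51), with Kcnj8 called in both tissues at 0.72 and 0.82 and Vtn in hippocampus at 0.65. Their summed level was 151 to 215 CPM in AA cortex and 208 to 276 in SS cortex. Smooth muscle markers had medians of 0.32 and 0.64 with 0 of 4 called, and the medians of the astrocyte, oligodendrocyte and neuron lists were -0.26, -0.27 and -0.11 in cortex with 0 called. All 4 erythroid markers were called higher (medians 3.13 and 3.34), with summed levels of 2.82 to 108 CPM in AA cortex and 60.02 to 140 in SS cortex, none of them at 0 in any group. Choroid plexus markers had a median of 1.38 in cortex (5 of 5 above 0, 1 called), where 1 SS library held 1194 CPM in sum and the SS median was 12.6, and -0.91 in hippocampus with 0 called. Fibroblast markers had medians of 0.21 in both tissues with 0 of 5 called. The part of these cell types in the endothelial result was not tested.

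Hippocampus of SS mouse 5349 was the highest of the 7 SS libraries in 21 of the 36 genes. It also held choroid plexus markers at 2398 CPM, pericyte markers at 345 and smooth muscle markers at 124, all summed, where the medians of SS hippocampus were 118, 260 and 44.7. With mice 5844, 5853, 7078, 9631 and 9674 left out, 7 genes were called in hippocampus (Cdh5, Eng, Flt1, Kdr, Nostrin, Podxl and Robo4) and 4 in cortex. The share of all genes called in that fit is not given here. These counts are therefore not read as particular to the 36 genes.

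Under RSD none of the 36 genes was called between SS and AA mice, with 3 AA + RSD mice in the comparison. Called genes were 0.493% of all in cortex and 0.78% in hippocampus, and 9 and 10 of the 36 had an unadjusted p under 0.05 in edgeR, while DESeq2 called 0 in either tissue. Without mouse 9674 the share of all genes called was 0% in cortex (0 of 22870) and 0.0171% in hippocampus. Outside the 36, Vwf was called in cortex at 1.402, as 1 of the 16 other endothelial genes, and Rgs5 in hippocampus at 0.58, as 1 of 6 pericyte markers, both with that mouse included. The medians of the 36 were 0.24 and 0.22, with 34 and 28 above 0. Eng in cortex was at 19.7, 21.1 and 22.5 CPM in the AA + RSD mice and at 28.5 to 35.7 in the 6 SS + RSD mice, without overlap, for a log2 difference of 0.60 (SE 0.19, adjusted p = 0.251). Erg, at 0.65 (adjusted p = 0.349), and the thiamine carrier Slc19a3, at 0.54 (adjusted p = 0.637), had the next smallest p in cortex. In hippocampus these were Kdr at 0.69 (adjusted p = 0.149), Cd34 at -0.47 (adjusted p = 0.156) and Slc39a10 at -0.41 (adjusted p = 0.269). The last 2 rest on mouse 9674, without which they were at -0.04 and -0.03.

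Under RSD + minocycline 1 gene was called in cortex and 8 in hippocampus, all higher in SS, against 0.624% and 2.74% of all genes. The gene in cortex was Eng, at 7.34 to 32 CPM in the 18 AA mice (median 24.1) and 23.8 to 39.5 in the 14 SS mice (median 31.9), with log2 0.42 (SE 0.0929, adjusted p = 0.00939). The low AA value was library 9851, the lowest of its group in 17 of the 36 genes, and without it the difference was 0.35 and still called. In hippocampus Eng was at 15.8 to 38.2 CPM in AA and 22.4 to 42.9 in SS (log2 0.39, SE 0.0859, adjusted p = 0.00537). Abcb1a, the drug pump, was at 24.6 to 46.8 CPM (median 35.5) and 33.1 to 65.4 (median 43.8), with log2 0.36 (SE 0.0758, adjusted p = 0.00404). Both pairs of groups overlapped.

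The other 6 genes called in hippocampus also overlapped between the groups. They were Ptprb at 0.41 (20.6 to 68.2 CPM in AA and 37.4 to 78.1 in SS), Nostrin at 0.41 (2.6 to 4.63 and 2.55 to 6.63), Flt1 at 0.35 (41 to 97.1 and 63 to 136), Erg at 0.34 (3.71 to 6.31 and 4.07 to 9.3), Podxl at 0.23 (28.2 to 46.2 and 33.5 to 53.8) and Slc7a5 at 0.23 (53.8 to 83.1 and 63.8 to 104). Their adjusted p ran from 0.00928 for Flt1 to 0.0446 for Erg. Podxl encodes podocalyxin, a sialomucin of the luminal surface. The medians of the 36 genes were 0.19 in cortex and 0.14 in hippocampus, with 31 and 29 above 0. Among the 16 other endothelial genes, 4 were called in cortex and 2 in hippocampus, and pericyte markers had 2 of 6 called in each tissue. With only these groups in the model the count was 0 in cortex and 1 in hippocampus, where Abcb1a remained with adjusted p = 0.0475. The share of all genes called in that model is not given here. The lower count is therefore not read as particular to the 36 genes. These groups include mice 5853 and 7078, which stood apart in Alas2. With mice 5844, 5853, 7078, 9631 and 9674 left out, 10 genes were called in hippocampus, with Cdh5 and Kdr added. In cortex 2 were then called, Eng and Nostrin. The share of all genes called without these mice is not given here either.

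Across the 3 arms (no RSD, RSD, and RSD + minocycline), which used different mice, 29 of the 36 genes were higher in SS each time in cortex and 21 in hippocampus, where 19.5% and 12.7% of all genes were. In both tissues these included Eng at 0.39 to 0.73, Nostrin at 0.41 to 0.77, Kdr at 0.30 to 0.76, Ly6a at 0.35 to 0.82 and Ly6c1 at 0.26 to 0.73. Slc39a10 in cortex was the 1 gene lower in SS in all arms, where 16.8% of all genes in cortex were. Its values were -0.17 without RSD, -0.000568 under RSD and -0.27 under RSD + minocycline. The test of the difference itself, of SS against AA under RSD + minocycline minus that without either, called 0 of the 36 and 0% of genes in both tissues. In edgeR 4 had an unadjusted p under 0.05 in each tissue and DESeq2 called 0. The medians of this difference were -0.10 in cortex and -0.15 in hippocampus, with 11 and 10 of 36 above 0. Mice 5844, 5853, 7078 and 9631, which stood apart from their labels, are included in these values. Its smallest p values belonged to Tie1 (-0.36), Robo4 (-0.32) and Kdr (-0.42) in cortex and to Egfl7 (-0.48), Emcn (-0.52) and Tie1 (-0.34) in hippocampus, with adjusted p of at least 0.829.

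**Figure D3:**
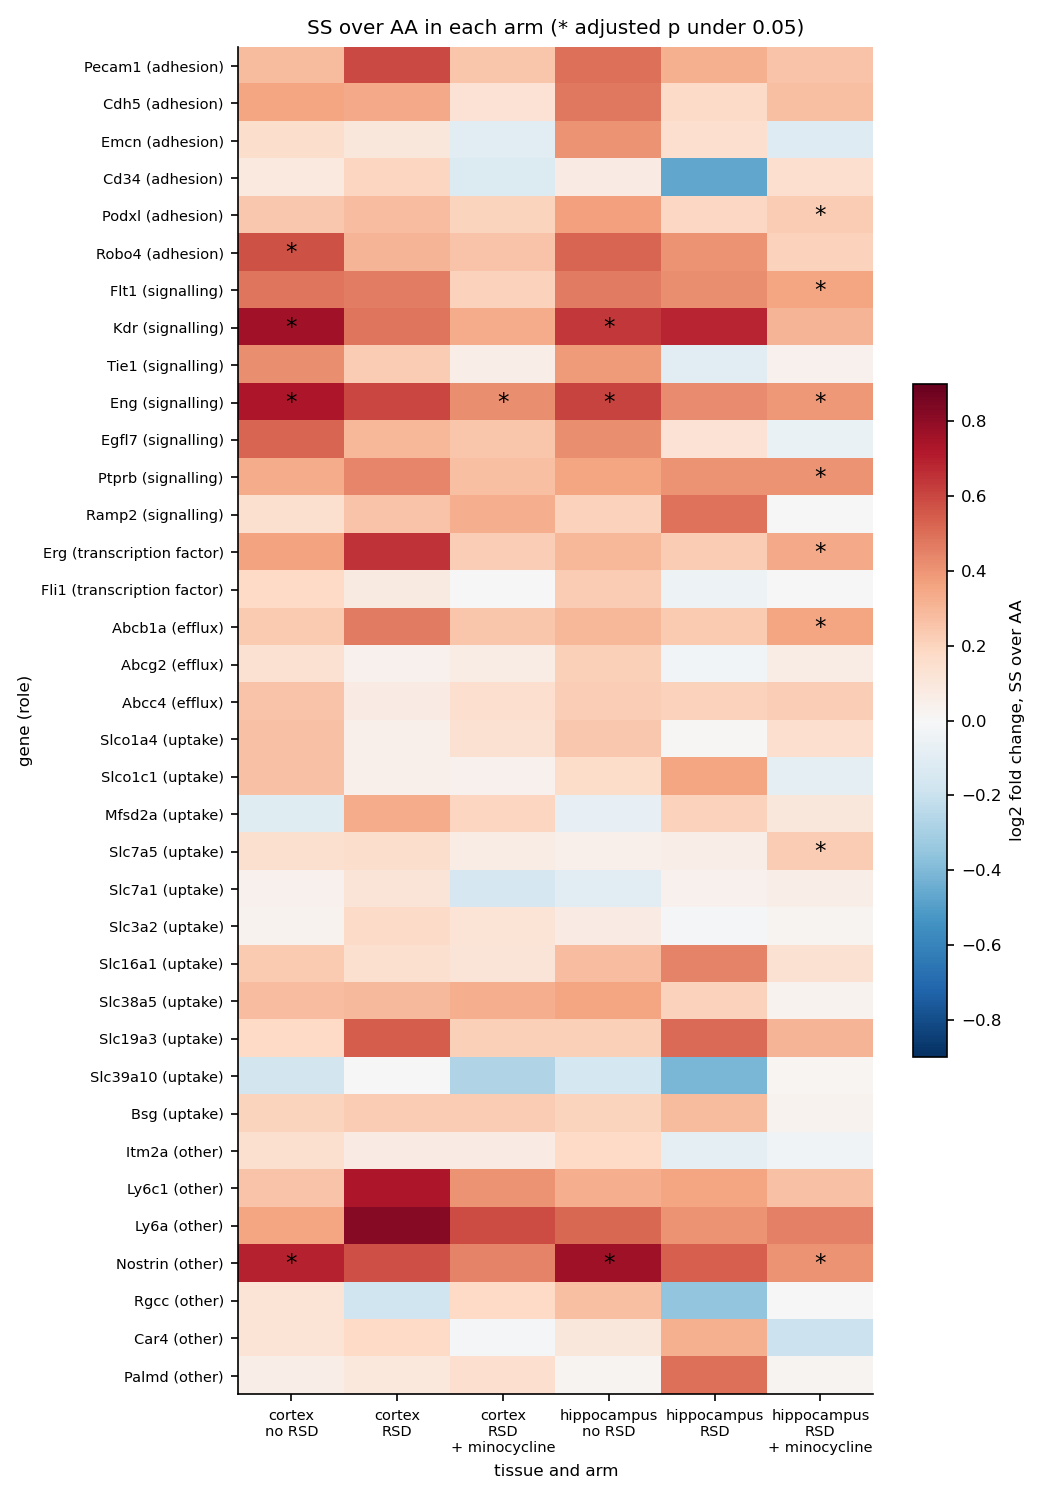
Log2 fold change of SS over AA for each of the 36 genes, by tissue and arm, with red for higher in SS and an asterisk for adjusted p under 0.05. Eng has 4 asterisks, and the column of RSD + minocycline in hippocampus holds the most, 8.

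Within SS mice, RSD without drug called none of the 36 genes, against 2.57% of genes in cortex and 3.11% in hippocampus. In edgeR 6 and 2 of them had an unadjusted p under 0.05, and DESeq2 called 2 and 0. The medians were 0.18 and 0.15, beside 0.08 and 0.06 over all genes. Robo4 had the smallest p in cortex, at -0.36 (adjusted p = 0.0636). With series as a term its log2 fold change was 0.01, and it was not called. Next in cortex were Pecam1 at 0.40 (adjusted p = 0.0861) and Itm2a, a membrane protein of endothelial cells, at 0.41 (adjusted p = 0.0918). In hippocampus these were Slc39a10 at 0.26, the hormone carrier Slco1c1 at 0.34 (-0.07 with series as a term) and Slc19a3 at 0.27, with adjusted p from 0.202 to 0.321. Series A alone held all SS + RSD mice but only 2 of the 8 SS mice, and with series as a term the medians of the 36 were 0.02 and -0.11.

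Between SS + RSD + minocycline and SS + RSD mice the log2 fold change was below 0 for 35 of the 36 genes in cortex and 34 in hippocampus. The medians were -0.25 and -0.21 against -0.05 and -0.03 over all genes. Called genes were 4 in cortex and 2 in hippocampus, all lower, against 8.85% and 5.96% of all genes, so that the share of the 36 was near the background. Pecam1 was called in both tissues. In cortex it was at 30.4 to 42.2 CPM in SS + RSD (median 37.7) and 19.1 to 33.8 in SS + RSD + minocycline (median 24.5), and it fell by 0.63 on the log2 scale (SE 0.126, adjusted p = 0.00795). In hippocampus it was at 29.3 to 37.9 and 14.8 to 30.4 and fell by 0.51 (SE 0.157, adjusted p = 0.0488). The groups overlapped slightly in both.

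The other calls in cortex were Cdh5, Slc39a10 and Podxl. Cdh5 (chr8:104828231-104871143, +) was at 17.6 to 22.7 CPM in SS + RSD (median 20.1) and 9.47 to 20.3 in SS + RSD + minocycline (median 14.7) and fell by 0.50 (SE 0.127, adjusted p = 0.0166). Slc39a10 was at 237 to 329 CPM (median 272) and 140 to 288 (median 214) and fell by 0.47 (adjusted p = 0.043), and Podxl at 47.8 to 71.5 and 34 to 57.5 and fell by 0.36 (adjusted p = 0.031). These 3 overlapped between the groups. In hippocampus Kdr was at 23.7 to 37.1 CPM (median 25.5) and 12.8 to 25.8 (median 22.1) and fell by 0.54 (SE 0.139, adjusted p = 0.0297). All 7 signalling genes, all 3 efflux pumps and both ETS factors were below 0 in either tissue, with cortex medians of -0.21, -0.20 and -0.37, and the adhesion genes had the lowest median in hippocampus at -0.32.

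None of these calls held once the number series was a term in the fit. The count was then 0 in both tissues, as it was over all genes tested (0 of 19906 in cortex and 0 of 20701 in hippocampus), and Pecam1 was at -0.08 in cortex and 0.22 in hippocampus, with medians of the 36 at -0.11 and 0.10. No number series holds both groups, so that a within-series value cannot be had, and treatment and series cannot be told apart except through the SS mice without stress, which fall in A and B. In cortex those SS mice differed between the series themselves, with Pecam1 at 36.2 and 37.5 CPM in the 2 mice of series A and 25.8 to 32.2 in the 6 of series B. With the share of reads outside genes as a term the count was 0 as well, with 0.0201% of all genes called in cortex and 0% in hippocampus. Without cortex libraries 5646, 5801, 9621, 9813 and 9890 it was 4 (Cdh5, Ly6c1, Pecam1 and Slco1c1), with Slc39a10 at -0.40 (adjusted p = 0.0854), and without hippocampus library 9810 it was 3 (Cdh5, Flt1 and Kdr). Markers of other cells moved in the same comparison, since 3 of the 16 other endothelial genes (Cd93, Tek and Lsr), 2 of 4 smooth muscle, 2 of 4 erythroid (median -1.06), 2 of 5 astrocyte, 2 of 5 microglia and 1 of 5 fibroblast markers were called lower in cortex. In hippocampus 2 of 5 microglia markers and 1 of 5 each of the astrocyte, choroid plexus and fibroblast markers were called lower. Their part in the result was not tested.

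**Figure D4:**
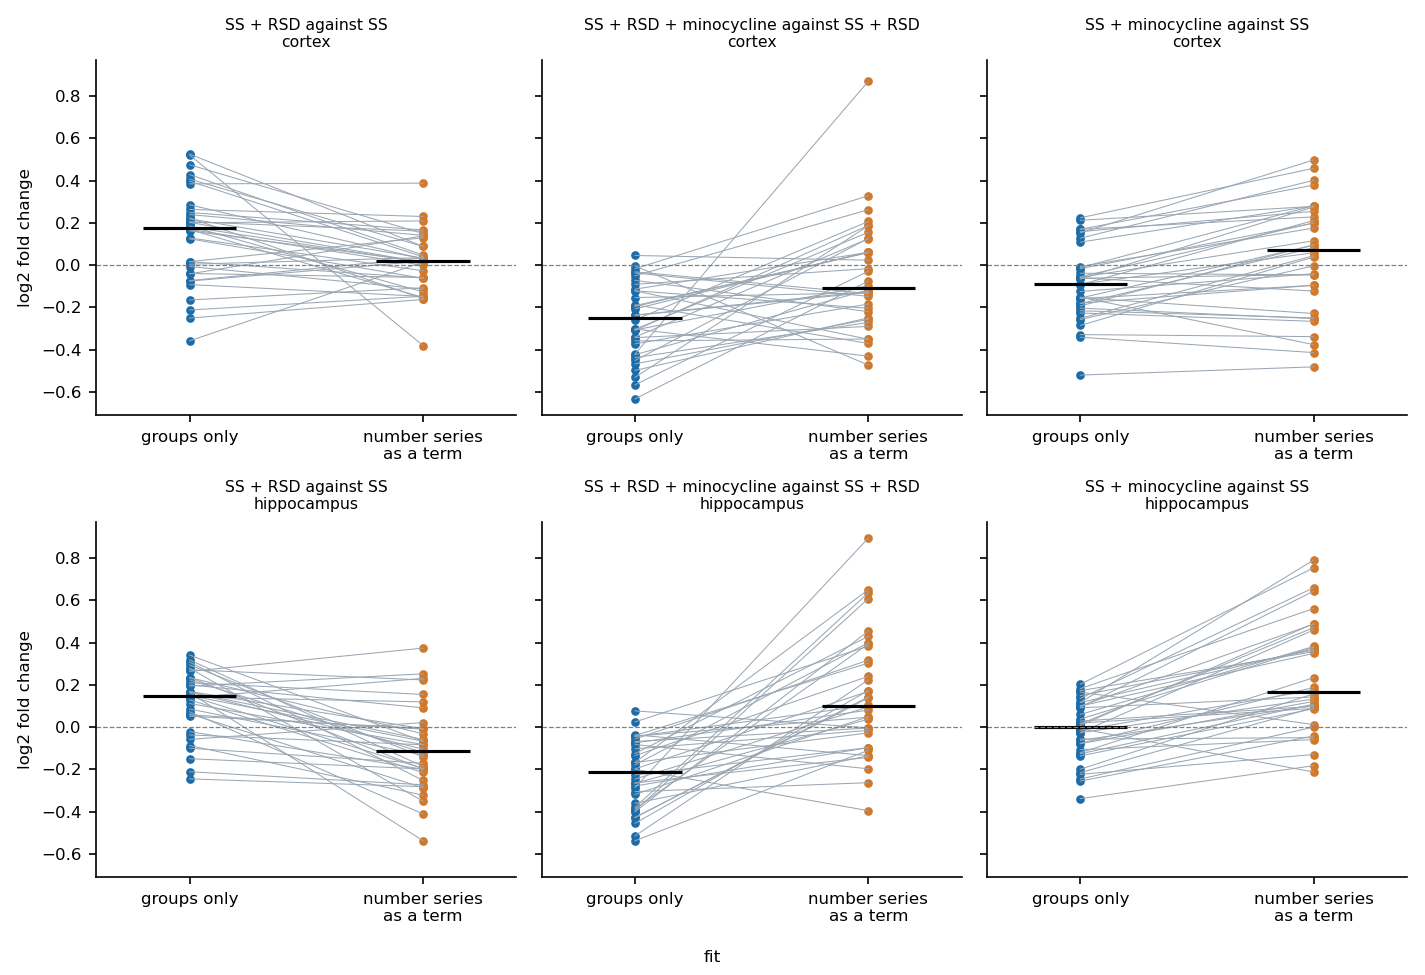
Log2 fold change of the 36 genes in 3 comparisons within SS mice, in the fit with groups only and in the fit with the mouse number series as a term, with 1 line per gene and the median as a bar. For SS + RSD + minocycline against SS + RSD the median moves from -0.25 to -0.11 in cortex and from -0.21 to 0.10 in hippocampus.

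Minocycline without stress called none of the 36 genes in SS mice, as in 0% of all genes in either tissue. In edgeR 3 in cortex and 1 in hippocampus had an unadjusted p under 0.05, and DESeq2 called 0. The medians were -0.09 and 0.00. In cortex Eng had the smallest p, with SS + minocycline mice at 28.8, 29.7, 30.5 and 33.2 CPM and SS mice at 32.1 to 46 (log2 -0.33, adjusted p = 0.666), followed by Abcc4, a pump for organic anions, at -0.52 and Robo4 at -0.34. In hippocampus Robo4 (-0.34), Slc19a3 (-0.26) and Slc7a1 (0.17) had an adjusted p of 0.981. The 4 treated mice were not alike. Bsg in cortex was at 302 and 339 CPM in the 2 mice of series C and 547 and 876 in the 2 of series B, with SS mice of series B at 399 to 468, and Ly6a was at 17.4 and 18.5, 44.3 and 72.5, and 28.1 to 38.2. Within series B, 15 of the 36 genes (41.7%) were called in cortex, 10 higher and 5 lower, where 40.3% of all genes were, and 11 (30.6%) in hippocampus, all higher, where 30.1% of all genes were, with 2 treated mice in each.

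In AA mice RSD called none of the 36 genes in cortex and Cd34 in hippocampus, against 0.853% and 1.19% of all genes. In cortex 1 gene had an unadjusted p under 0.05 in edgeR and DESeq2 called 0, and the smallest p belonged to Itm2a (0.40), Slco1c1 (0.33) and Bsg (0.33), with adjusted p from 0.304 to 0.438. Cd34, a sialomucin of vessels and of some progenitor cells, was at 66.4, 67.5 and 126 CPM in the 3 AA + RSD hippocampus libraries and 55.7 ± 5.79 (SD, n = 11) in AA. The library at 126 was 9674, the one with a low Prox1. With it the log2 difference was 0.67 (SE 0.131, adjusted p = 0.00513), and without it 0.25 (adjusted p = 0.899). Summed choroid plexus markers were at 5199 CPM in the cortex library of this mouse and at 11.9 and 24.9 in the other 2 AA + RSD cortex libraries, and all 5 were called higher in AA + RSD cortex with it included. Without it the share of all genes called was 0% in cortex (0 of 21861) and 0.0419% in hippocampus.

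Between AA + RSD + minocycline and AA + RSD no gene of the 36 was called in cortex and 2 were called lower in hippocampus, against 3.6% and 2.67% of all genes. These were Slc39a10, at -0.61 (SE 0.136, adjusted p = 0.00955), and Cd34, at -0.57 (SE 0.125, adjusted p = 0.00833). Without mouse 9674 they were at -0.23 and -0.15 and neither was called, and the share of all genes called was 0% in cortex and 0.0419% in hippocampus. Slc39a10 in that mouse was at 152 CPM in the library labelled cortex and 268 in the one labelled hippocampus, where the other 2 mice had 328 and 345 in cortex and 181 and 122 in hippocampus. In cortex 2 genes had an unadjusted p under 0.05 in edgeR, DESeq2 called 0, and Bsg (-0.42, adjusted p = 0.166), Slc16a1 (-0.37) and Slco1c1 (-0.29) had the smallest p. The medians of the 36 were -0.08 and -0.13.

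Between the tissues of AA mice 8 of the 36 genes differed, 3 higher in hippocampus and 5 lower, where 37.1% of all genes were called. This fit left out the pairing by mouse. Cd34 (chr1:194621029-194647172, +) was at 127 ± 10.6 CPM (SD, n = 12) in cortex and 55.7 ± 5.79 (SD, n = 11) in hippocampus and was lower there in 11 of 11 mice, with log2 -1.20 (SE 0.0607, adjusted p = 3.44e-14). Slc39a10 (chr1:46845872-46964964, -) was at 292 ± 31.9 CPM and 140 ± 16 and lower in 11 of 11 mice, with log2 -1.08 (adjusted p = 9.71e-12). Neither overlapped between the tissues. Palmd, palmdelphin, was at 13.2 ± 3.09 CPM in cortex and 27.2 ± 4.5 in hippocampus, higher in 10 of 11 mice (log2 1.03, adjusted p = 1.89e-07). Ramp2 was also higher in hippocampus at 0.72 (11 of 11 mice, adjusted p = 5.95e-06), and so was Slc38a5 at 0.72 (10 of 11 mice, adjusted p = 0.0195). Of the exonic bases of Ramp2, 28.6% overlap Vps25 on the same strand, so that their reads may be shared.

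The 3 remaining calls between tissues were small and were carriers or a pump. Slc7a1, the carrier of cationic amino acids, was lower in hippocampus at -0.28 (11 of 11 mice), Abcb1a at -0.24 (10 of 11) and Slc7a5 at -0.17 (10 of 11), with adjusted p from 0.00245 to 0.0249. The median of the 36 was -0.06, beside 0.02 over all genes. With the mouse as a block, 19 of the 36 were called (52.8%), 6 higher and 13 lower in hippocampus, where 53% of all genes were. The genes added by the block included Kdr at 0.19, Car4, a carbonic anhydrase of capillaries, at 0.21, Erg at -0.21, Ly6a at -0.18 and Cdh5 at -0.16. Choroid plexus markers, 5 of 5, were higher in hippocampus at a median of 3.71, and 2 of the 16 other endothelial genes were called higher. Neuron markers had 3 of 5 called lower.

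**Figure D5:**
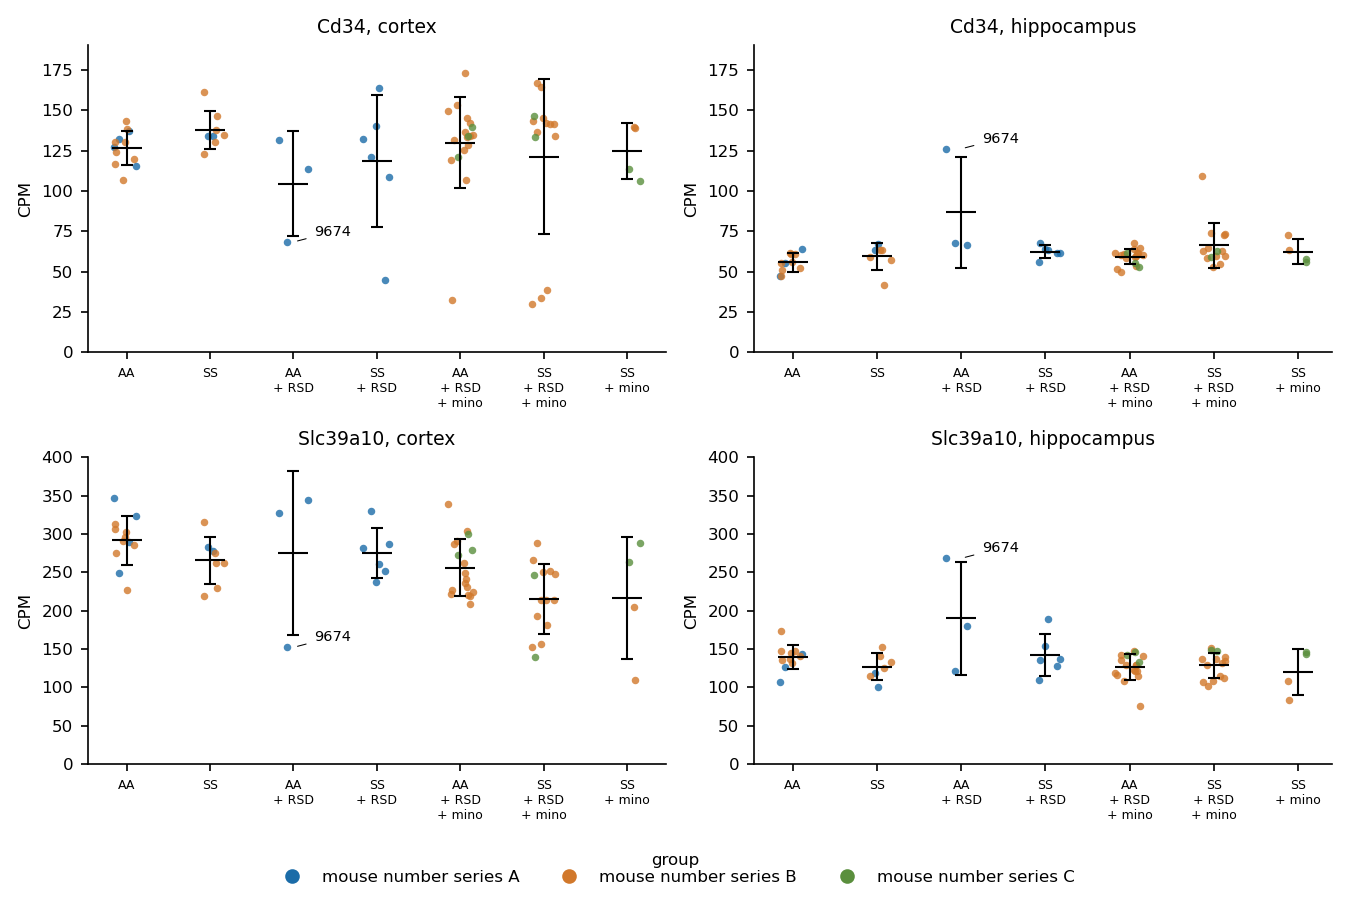
CPM of Cd34 and Slc39a10 in every compared mouse by group and tissue, with mean and SD as bars, the mouse number series in colour (mino, minocycline) and mouse 9674 marked. Cd34 in AA mice is near 127 CPM in cortex and 55.7 in hippocampus, and mouse 9674 has 68.4 in the library labelled cortex and 126 in the one labelled hippocampus.

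The 5 cortex libraries that stood apart in region markers were also low in Cd34. Cd34 was at 32.3 CPM in library 5646 (AA + RSD + minocycline), at 33.8, 30.1 and 38.9 in 5801, 9813 and 9890 (SS + RSD + minocycline) and at 44.8 in 9621 (SS + RSD), all below the AA cortex range. Drd1, a receptor of striatal neurons, was at 27.4, 65.3 and 48 CPM in the 3 libraries of SS + RSD + minocycline, 74.6 in 9621 and 19.6 in 5646, where the cortex libraries other than these 5 and 9674 (5.65) had 5.91 to 27.2. The hippocampus library 9810 had Cd34 at 109. What tissue these libraries hold was not tested.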

How the data were processed

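Bulk polyA RNA-seq of cortex and hippocampus was deposited by the authors as gene counts in 1 table per tissue (directional libraries, STAR, GRCm39, GENCODE genes), with no normalization. The samples were grouped by the genotype, stress, treatment and tissue in the labels. Of 134 libraries with a group (68 cortex, 66 hippocampus), a pair with identical counts under different labels (9877 and 9887) was left out in each tissue, 1 sample with conflicting tissue labels and 3 columns were not used, and AA + minocycline, with 1 mouse, entered no comparison. The 4 summary lines stayed out of library sizes. Unmapped reads were 4.01% to 36.2% of the total in cortex and 3.07% to 41.9% in hippocampus, and reads outside genes 3.69% to 13.9% and 3.98% to 24.0%.

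Counts were filtered with filterByExpr (minimum count 10, total 15), scaled by TMM and tested with the quasi-likelihood test of edgeR 4.0.16 in R 4.3.3 (limma 3.58.1), with Benjamini-Hochberg adjustment over all genes tested. Comparisons within a genotype used all groups of that genotype in a tissue, and comparisons between genotypes used all groups of the tissue, without the left-out libraries. Adjusted p-values throughout are from this test unless DESeq2 1.42.0 is named. CPM are counts per 1000000 reads on genes, and p-values measure the spread between mice. The main fit of the tissue comparison treats both libraries of a mouse as independent, so its p-values ignore the pairing. In each comparison and tissue the genes named are the called members, up to the 8 of largest absolute log2 fold change, or the 3 of smallest p where none was called; other members appear by role, as does any gene singled out after its values were seen. The members, lists and comparisons were chosen with earlier results of these data known.

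Mouse numbers pair the tissues: over 5000 genes, the lowest correlation of a mouse's deviations in both tissues was 0.499 over 11 AA mice (median 0.741), and the median between different mice was -0.442. The fit with the mouse as replicate block is given beside the tissue result. The scripts were tested on simulated data. The alternatives were RLE size factors, no filter, only the compared groups, the number series or the share of reads outside genes as a term, series A or B alone, leaving out each replicate of small groups or the libraries that stand apart, keeping the identical pair, and DESeq2. Leaving out 5349, 9851, 9810 or the 5 cortex libraries that stand apart in region markers was chosen after seeing the data, in part by a marker not reported here. Promoter windows are RefSeq's, and gene coordinates and exonic lengths GENCODE's on GRCm39.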

Additional observations from a re-analysis of the deposited data

Results flagged for a closer look

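Among 168 checks of 1 value in a group of 4 to 10 mice, 16 had the highest or the lowest mouse far from the rest of its group by Dixon's test at the 95% level, where chance flags about 1 in 20 groups. In SS cortex mouse 5353 was low in Flt1 (89.1 CPM, others 113 to 134) and high in Itm2a (49.6, others 32.7 to 40.3). In SS hippocampus mouse 5349 was high in Cdh5 (27.7, others 15.4 to 17.8), Kdr (38.7, others 21.7 to 28.6), Pecam1 (46.5, others 24 to 31.5) and Podxl (66.1, others 44.2 to 52.6), and in the mean log2 CPM over the 36 genes (5.11, others 4.72 to 4.87). Mouse 9848 was low in Cd34 there (41.8, others 57.5 to 67.3).

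In SS + RSD hippocampus mouse 9615 was high in the mean log2 CPM over the 36 genes (4.99, others 4.83 to 4.89) and in Slco1c1 (128, others 59.4 to 83.8). Mouse 5400 was high in Egfl7 (24.3, others 17 to 19.2), 9621 in Podxl (64.7, others 46.8 to 50.6) and 5354 in Tie1 (15.6, others 11.7 to 12.9). In SS + minocycline mouse 9889 was low in Flt1 in cortex (62.5, others 108 to 114) and high in hippocampus in Emcn (7.86, others 5.04 to 5.49) and Slco1c1 (70.3, others 60.1 to 60.6).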

How the results depend on the processing

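The counts in this section are of the 36 genes. The share of all genes called in each alternative fit is given only where stated. A changed count is therefore not read as particular to these genes. Between SS and AA the 4 genes called in cortex became 0 in series A alone and 2 without mouse 5349. The 3 in hippocampus became 5 with series as a term, 7 without the libraries that stand apart, 0 in series A, 0 in series B, 5 without 5844, 5 without 7078 and 5 with DESeq2. Under RSD in hippocampus the 0 became 1 without 9643 and 2 without 9646. Under RSD + minocycline the 1 in cortex became 0 with only the compared groups, 2 with the share outside genes as a term, 3 with the number series, 2 without the libraries that stand apart, 0 in series B, 2 without 7078 and 2 with DESeq2, and the 8 in hippocampus became 1 with only the compared groups, 3 with the share outside genes, 1 in series B, 5 without 9810 and 5 with DESeq2.

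For SS + RSD against SS in cortex the 0 became 1 with RLE size factors, 6 with only the compared groups (16.7% of the 36, where 19.2% of all genes were called), 1 without 5349, 3 without 5353 and 2 with DESeq2. For SS + RSD + minocycline against SS + RSD the 4 in cortex became 2 with no filter, 0 with the share outside genes and 0 with series as a term, and the 2 in hippocampus became 0 with no filter, 4 with only the compared groups, 0 with series, 0 with the share outside genes, 1 without the libraries that stand apart and 4 with DESeq2. For SS + minocycline series B alone gave 15 and 11. For AA + RSD against AA in hippocampus the 1 became 0 with only the compared groups, 2 with the share outside genes, 0 with the number series, 0 without the libraries that stand apart, 2 without 9646, 0 without 9674 and 0 in series A. For AA + RSD + minocycline against AA + RSD there the 2 became 1 with the share outside genes, 0 without the libraries that stand apart, 0 without 9674 and 4 with DESeq2. For the tissues of AA mice the 8 became 19 with the mouse as replicate block, and no other comparison is between samples of the same mice.

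Leaving out each replicate in turn gave 0 to 3 calls for AA + RSD + minocycline against AA + RSD, 0 to 2 for AA + RSD against AA and 0 to 2 for SS + RSD against AA + RSD in hippocampus, and 0 to 0 for these in cortex and for SS + minocycline against SS in both tissues. Among single named genes 8 values changed direction under an alternative. With series as a term this was the case for Bsg for AA + RSD + minocycline against AA + RSD in cortex (0.00603), Pecam1 for SS + RSD + minocycline against SS + RSD in hippocampus (0.22), and for SS + RSD against SS Robo4 in cortex (0.0145, and 0.00566 in series A) and Slco1c1 in hippocampus (-0.0668, and -0.0486 in series A). The others were Slc7a1 for SS + minocycline in hippocampus in series B (-0.0915) and Slco1c1 for AA + RSD + minocycline against AA + RSD in cortex, which ran from -0.444 without 9646 to 0.00406 without 9674. Of the member counts 191 of 242 stayed within 1.5 times the value reported and 51 moved, and the cause was not tested. The groups of 3 AA + RSD and 4 SS + minocycline mice limit the precision.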
